A study of Mus musculus with 20 samples.

Results

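The genes of DNA replication and mitosis were followed through adipocyte differentiation of 3T3-L1, a fibroblast-like mouse line whose cells turn into fat cells when given inducing hormones. The 49 genes, 9 for origin licensing and the replicative helicase, 9 for the replication fork and nucleotide supply, 4 regulators of the G1/S transition, 9 cyclins, kinases and regulators of G2/M, 6 of the spindle checkpoint and anaphase, 6 of centromeres and chromosomes, and 6 of the spindle and cytokinesis, were chosen by name. Each had a row in all 5 deposited tables. They are 49 of 33581 genes in each table and 49 of the 16497 genes tested, and all 49 passed the filter on low values, which asked for 10 or more normalised counts on average in any of the tables.

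Confluent 3T3-L1 cells re-enter the cell cycle after induction, a step known as mitotic clonal expansion, and then leave the cycle as they become adipocytes. Before S phase, cyclin E with its kinase relieves the pocket proteins' block on E2F factors, which drive genes of licensing, the fork and nucleotide supply. Genes of G2 and mitosis are repressed by the DREAM complex in resting cells and come on later, under MuvB with FOXM1. Promoter elements such as CHR and CCAAT boxes take part in this control.

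All cells were 3T3-L1 infected at low passage with a SMARTvector lentivirus and selected with puromycin as a mixed population. They carried a scrambled hairpin (scrambled arm) or a hairpin against Tcf7l2 (knockdown arm), a transcription factor that works with beta-catenin. RNA-seq was done on days 0, 2, 4, 6 and 8 of differentiation, with 2 libraries in each of the 10 groups (20 in all). A thiazolidinedione was not routinely part of the induction medium. The labels give 1 knockdown hairpin for these libraries, and its other effects cannot be told apart from those of losing Tcf7l2. Whether same-group libraries are separate cultures is not stated in the labels. The p-values thus cover the variation among the libraries at hand and nothing beyond it, and that variation may be technical.

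The promoters show which letters of cell cycle elements lie before these genes. RefSeq promoters (GRCm38.p6, while the reads were aligned to mm9) were found for 41 of 49 members. The 250 bases before the RefSeq start were searched on both strands for the CHR letters TTTGAA, for CCAAT and for the E2F letters TTTCCCGC, TTTCGCGC, TTTGCCGC and TTTGGCGC. CCAAT was present in 31 of 41 members (75.6%), against 37.5% of 27025 genes with a promoter in the same table. The E2F letters were present in 7 of 41 members (17.1%), against 2.16% of genes. CHR letters were present in 11 of 41 (26.8%), against 18.3% of genes, and all 11 also held CCAAT, a combination found in 6.45% of genes. By phase, the E2F letters were in 4 of 8 licensing and helicase promoters (Cdc6, Mcm5, Mcm6 and Mcm7) in 2 of 9 of the fork and nucleotide genes (Pola1 and Rfc3), in 0 of 3 of the G1/S regulators, in 1 of 5 of the G2/M genes (Cdk1) and in 0 of 6, 0 of 6 and 0 of 4 of the spindle checkpoint, centromere and spindle groups. In the same order, CHR letters were in 2 of 8, 0 of 9, 1 of 3, 2 of 5, 2 of 6, 2 of 6 and 2 of 4. These groups are small, and their differences were not tested. A match is a description of these letters and not a binding site.

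Shown here as examples are promoters of members picked by name and not by a rule. Cdk1 and Mcm5 are among the 7 of 41 members with E2F letters. All promoters run 5′ to 3′ on the gene's strand, with matches to the searched letters in capitals. ATTGG is CCAAT read on the other strand, and TTCAAA is TTTGAA. Each stops at the start of the transcript, taken as whichever of the RefSeq and GENCODE starts lies farther upstream, so that the stretches of Cdk1, Rrm2 and Ccne1 are 26, 13 and 44 bases shorter than those searched. Top2a lies at chr11:99024190-99024439 on the minus strand, Cdk1 at chr10:69352939-69353162 on the minus strand, Mcm5 at chr8:75109259-75109508 on the plus strand, Rrm2 at chr12:24708004-24708240 on the plus strand, and Ccne1 at chr7:38107535-38107740 on the minus strand.
Top2a: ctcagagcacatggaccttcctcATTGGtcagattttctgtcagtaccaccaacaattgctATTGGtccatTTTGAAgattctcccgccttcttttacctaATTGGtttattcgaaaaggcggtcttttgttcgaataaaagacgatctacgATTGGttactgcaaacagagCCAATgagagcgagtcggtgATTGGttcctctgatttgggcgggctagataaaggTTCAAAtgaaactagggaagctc
Cdk1: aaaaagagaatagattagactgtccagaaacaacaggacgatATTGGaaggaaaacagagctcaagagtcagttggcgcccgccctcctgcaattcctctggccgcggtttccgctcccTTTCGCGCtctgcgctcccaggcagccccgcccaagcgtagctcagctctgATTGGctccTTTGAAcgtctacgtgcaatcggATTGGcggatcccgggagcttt
Mcm5: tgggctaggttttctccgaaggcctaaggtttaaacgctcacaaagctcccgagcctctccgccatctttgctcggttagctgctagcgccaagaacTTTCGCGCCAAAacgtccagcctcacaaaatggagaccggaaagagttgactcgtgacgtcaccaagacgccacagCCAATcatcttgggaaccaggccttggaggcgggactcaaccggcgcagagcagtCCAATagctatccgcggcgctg
Rrm2: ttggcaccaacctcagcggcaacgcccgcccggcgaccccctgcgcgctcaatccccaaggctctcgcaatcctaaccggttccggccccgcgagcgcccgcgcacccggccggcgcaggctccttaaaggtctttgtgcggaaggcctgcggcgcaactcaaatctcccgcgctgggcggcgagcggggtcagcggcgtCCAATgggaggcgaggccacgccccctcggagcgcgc
Ccne1: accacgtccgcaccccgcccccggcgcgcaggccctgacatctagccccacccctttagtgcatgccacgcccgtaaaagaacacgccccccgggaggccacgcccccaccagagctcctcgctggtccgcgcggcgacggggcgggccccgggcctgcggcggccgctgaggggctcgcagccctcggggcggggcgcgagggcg
Top2a, a mitotic gene, carries 6 CCAAT and 2 CHR matches. Cdk1 carries 3 CCAAT, 1 CHR and 1 E2F match, and the 2 E2F matches of Mcm5 overlap on opposite strands. In Rrm2 there is 1 CCAAT match, and the searched letters were not found in the Ccne1 stretch or in the 44 bases left off it.

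Tcf7l2 (ENSMUSG00000024985.11) checks the labels. At day 0 it was at 40.5 and 58.0 RPM (reads per 1000000 after scaling) in the scrambled libraries and at 13.4 and 22.2 in the knockdown libraries. At day 8 it was at 50.5 and 57.2 against 19.0 and 16.1, and its level was lower in both knockdown libraries on all 5 days. The log2 differences lay between -1.04 and -1.52. All 5 were called, with adjusted p between 0.00117 and 0.0466 (limma). That of day 2 (-1.04, adjusted p = 0.0466) was no longer called with median centring (-1.03, adjusted p = 0.0556), with no filter (adjusted p = 0.0599) or without any 1 library of day 2 (adjusted p from 0.327 to 0.484). That of day 0 was not called without scrambled library 2 (-1.05, adjusted p = 0.177) or knockdown library 1 (-0.99, adjusted p = 0.065) of that day. Fitted on 1 table at a time, those of days 0, 6 and 8 were not called (adjusted p = 0.427, 0.052 and 0.336), and their sizes did not move. Totals per library ranged from 20153362 to 33973608 reads recovered from the deposited values. Summed over 7 preadipocyte and fibroblast markers (such as Col1a1 and Col3a1), levels were 10540 to 30520 RPM in all libraries, while 4 endothelial markers summed to at most 1.22 RPM, 4 epithelial markers to at most 1.87, and 5 macrophage and leukocyte markers to between 17.9 and 30.5. Summed over 8 adipocyte markers, such as Lpl and Fabp4, scrambled libraries were at 667 and 595 RPM at day 0 and 5493 and 26380 at day 8. Knockdown libraries were at 470 and 341, then 2269 and 3583. Most of each day 0 sum was Lpl, at 570 and 513 RPM in scrambled and 402 and 293 in knockdown libraries. Library 2 stood above library 1 for 46 and 45 of 49 members at day 0 and for 47 and 49 at day 2 (scrambled and knockdown), so same-numbered libraries of both arms deviated the same way on those days.

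After induction, most replication and mitosis genes were higher in both arms, and those that passed the test all rose. Summed over the 49 members, levels in scrambled cells were 650 and 979 RPM at day 0 and 1426 and 2116 at day 2. In knockdown cells the sums were 604 and 862 at day 0 and 1230 and 1942 at day 2. Both day 2 libraries stood above both day 0 libraries in each arm. In bulk RNA, more cells in cycle and more RNA per cycling cell cannot be told apart. Across days, levels are reads recovered from separately normalised tables and rescaled together over the 20 libraries. Of 49 members, 16 were called higher at day 2 in scrambled cells, where 11.2% of all genes tested were, and 7 in knockdown cells, where 6.74% were (limma voom, adjusted p under 0.05). The median log2 difference was 1.07 in scrambled cells and 1.13 in knockdown cells, against 0.02 and 0.03 over all genes, and 47 of 49 members were positive in each arm. Members whose day 2 libraries both lay above both day 0 libraries numbered 41 of 49 in scrambled cells (33.3% of all genes) and 37 of 49 in knockdown cells (30.8%). With the replicate block (library number within day as a term), 35 members were called higher in scrambled cells, where 19.9% of all genes were, and 35 in knockdown cells, where 14.8% were, and Rfc3 was called lower in knockdown cells. The count depended on single libraries: in scrambled cells it was 5 without library 1 of day 0, 8 without library 2 of day 0 and 5 without library 2 of day 2. In knockdown cells it was 2 without library 1 of day 0, 3 without library 2 of day 0 and 2 without library 2 of day 2, and it was 16 without either scrambled library of day 8.

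**Figure D1:**
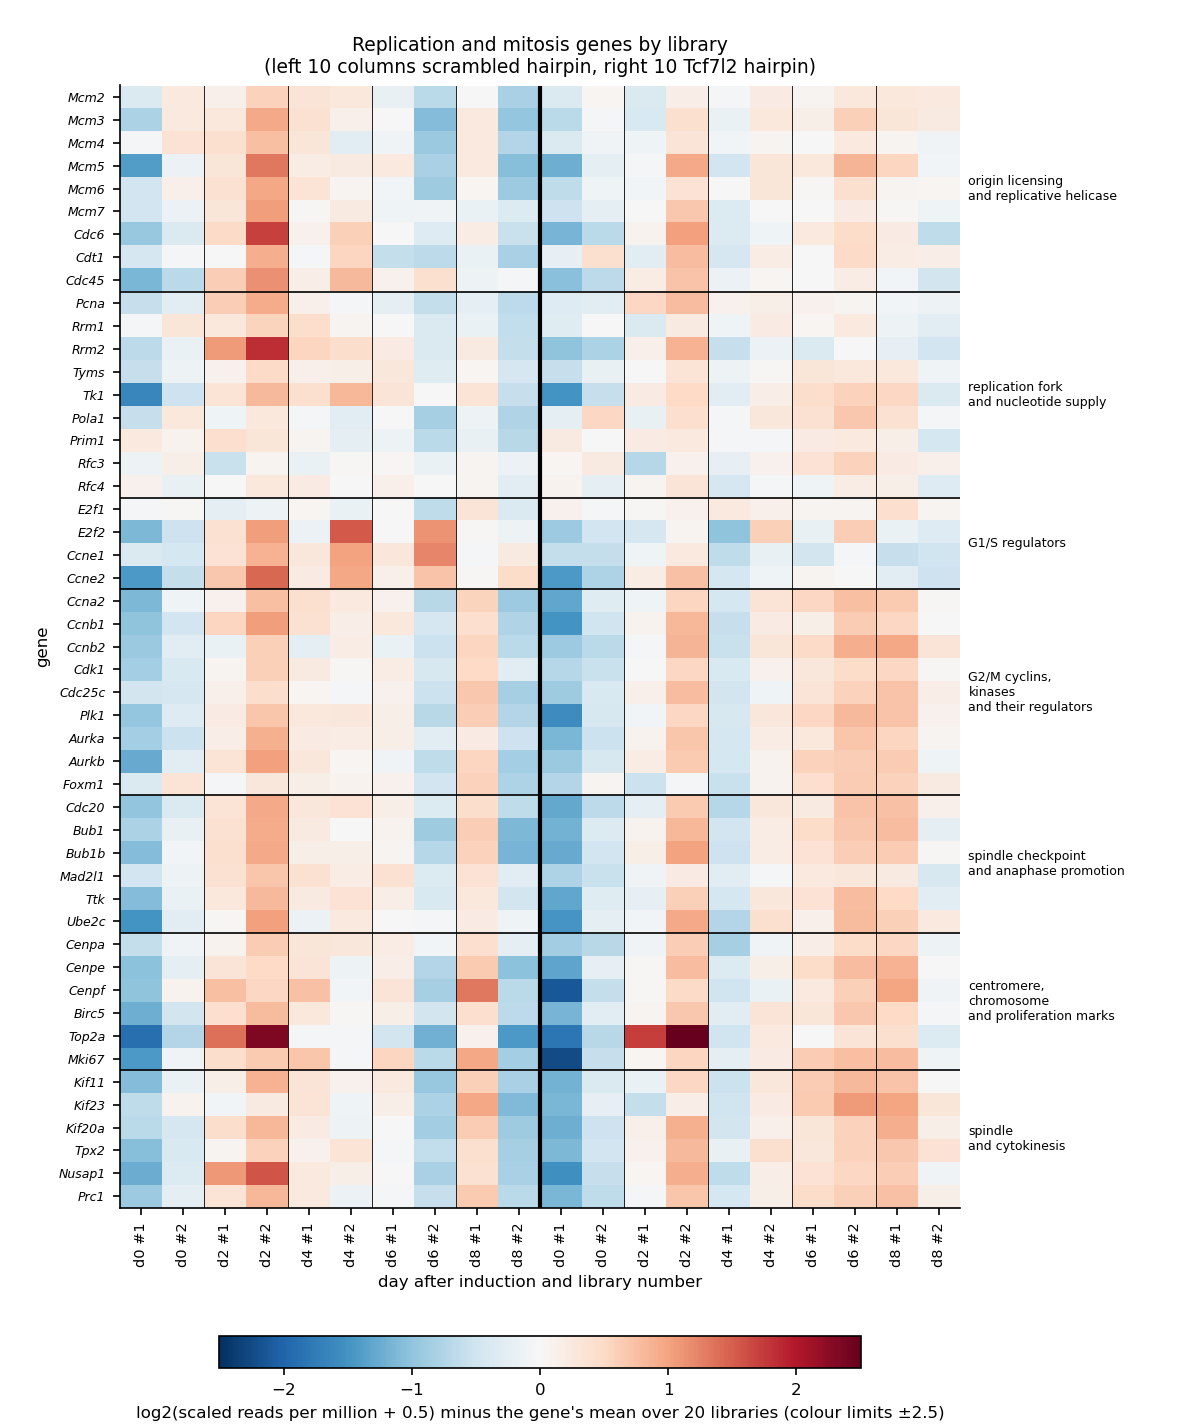
Levels of the 49 genes (y axis, grouped by role) in each of the 20 libraries (x axis: day and library number, scrambled left and knockdown right), coloured as log2(scaled RPM + 0.5) minus the gene's mean over 20 libraries. Day 2 columns are redder than day 0 columns in both arms, and library 2 of scrambled days 6 and 8 is bluer than library 1 for most genes.

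Among genes of licensing and the helicase, 3 of 9 were called higher at day 2 than day 0 in scrambled cells (Cdc6, Cdc45 and Mcm7). In knockdown cells it was 1 of 9 (Cdc45). Of all genes tested, 11.2% and 6.74% were called higher. The role groups here and below are small, and their counts were not tested against these shares. Uncalled genes with both day 2 libraries above both of day 0 were Mcm3, Mcm4, Mcm5, Mcm6 and Cdt1 in scrambled cells. In knockdown cells they were Mcm5, Mcm6, Mcm7 and Cdc6. Cdc45, which joins the MCM ring in the active helicase, was at 3.64 and 5.20 RPM at day 0 and 13.5 and 19.6 at day 2 in scrambled cells, and at 3.96 and 5.27, then 9.92 and 14.5, in knockdown cells. The day 2 libraries did not overlap those of day 0 in either arm. Its log2 difference was 1.89 (SE 0.31, adjusted p = 0.000827) in scrambled and 1.38 (SE 0.31, adjusted p = 0.00892) in knockdown cells. Cdc6, which loads the MCM ring onto origins, was at 1.63 and 2.69 RPM, then 5.20 and 12.9, in scrambled cells (log2 difference 1.97, SE 0.53, adjusted p = 0.0159). In knockdown cells it was at 1.34 and 2.08, then 3.84 and 7.87 (1.69, adjusted p = 0.0588, or adjusted p = 0.000907 with the replicate block). Mcm2 and Mcm4, helicase subunits, had log2 differences of 0.41 and 0.41 in scrambled and 0.06 and 0.34 in knockdown cells, none of them called. Mcm2 libraries of days 0 and 2 overlapped in both arms: 41.7 and 64.0 against 58.9 and 80.7 RPM in scrambled cells, and 41.6 and 55.6 against 41.9 and 60.3 in knockdown cells.

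Of the fork and nucleotide genes, Pcna, Rrm2 and Tk1 were called higher in both arms, 3 of 9, beside 11.2% and 6.74% of all genes. Pcna (ENSMUSG00000027342.7), the sliding clamp of the replicative polymerases, was at 49.3 and 60.9 RPM at day 0 and at 113 and 140 at day 2 in scrambled cells. In knockdown cells it was at 58.9 and 60.9, then 107 and 127. The groups did not overlap in either arm, and the rise was 2.29-fold in scrambled cells (log2 difference 1.19, SE 0.18, adjusted p = 0.000426) and 1.94-fold in knockdown cells (0.96, SE 0.18, adjusted p = 0.0027). Rrm2 (ENSMUSG00000020649.5), the S-phase subunit of ribonucleotide reductase, was at 11.9 and 16.8 RPM at day 0 and 40.2 and 69.4 at day 2 in scrambled cells, and at 9.14 and 10.8, then 20.7 and 34.8, in knockdown cells. The rise was 3.68-fold (adjusted p = 0.00203) and 2.70-fold (adjusted p = 0.0199). The knockdown call was lost without either library of day 0 or without library 2 of day 2 (adjusted p = 0.1, 0.0817 and 0.176). Tk1, thymidine kinase of the salvage route, rose 3.25-fold in scrambled cells (adjusted p = 0.0171) and 2.74-fold in knockdown cells (adjusted p = 0.0474). Rrm1, the large reductase subunit and partner of Rrm2, was not called, with log2 differences of 0.26 and 0.09. The other fork members (Tyms, Pola1, Prim1, Rfc3 and Rfc4) were not called in either arm, with log2 differences from -0.46 to 0.64. Counts of Pcna are uncertain in so far as its pseudogenes Pcna-ps1 and Pcna-ps2, which the tables list, could share reads.

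Both cyclin E genes were called higher in scrambled cells, 1 of them in knockdown cells as well, and neither E2F gene was called. Ccne2 (ENSMUSG00000028212.10), cyclin E2, was at 2.11 and 4.19 RPM at day 0 and 10.8 and 18.6 at day 2 in scrambled cells, 4.66-fold higher (log2 difference 2.22, SE 0.43, adjusted p = 0.0027). In knockdown cells it went from 2.11 and 3.64 to 7.50 and 11.2, 3.26-fold higher (adjusted p = 0.0205), a call lost without either knockdown library of day 0 or library 2 of day 2 (adjusted p = 0.135, 0.0529 and 0.148). Ccne1 (ENSMUSG00000002068.10), cyclin E1, was at 12.2 and 11.5 RPM, then 20.4 and 29.4, in scrambled cells (2.10-fold, adjusted p = 0.0324), and at 10.3 and 10.2, then 14.6 and 18.8, in knockdown cells (log2 difference 0.70, SE 0.35, adjusted p = 0.206, or adjusted p = 0.01 with the replicate block). The scrambled call of Ccne1 was lost without either scrambled library of day 0 or library 2 of day 2 (adjusted p = 0.0934, 0.16 and 0.248). For both cyclins the day 2 libraries were above the day 0 libraries in each arm. E2f1, an activator of S-phase genes, was at 35.9 and 37.5 RPM at day 0 and 31.1 and 33.3 at day 2 in scrambled cells (log2 difference -0.19, SE 0.22), with both day 2 libraries the lower. E2f2, a related activator, had the largest uncalled difference in scrambled cells (2.45, SE 1.02, adjusted p = 0.0975, or adjusted p = 0.00057 with the replicate block), at levels of no more than 2.60 RPM.

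Some genes of mitosis were called higher at day 2 as well. Among cyclins and kinases of G2/M, 4 of 9 were called in scrambled cells (Ccnb1, Cdk1, Aurka and Aurkb), beside 11.2% of all genes. In knockdown cells 1 of 9 was called (Aurka), beside 6.74%. Cdk1 (ENSMUSG00000019942.6), the mitotic kinase, was at 12.7 and 17.7 RPM at day 0 and 24.3 and 35.6 at day 2 in scrambled cells (1.94-fold, adjusted p = 0.0473), and at 13.9 and 15.7, then 23.1 and 33.5, in knockdown cells (log2 difference 0.91, SE 0.32, adjusted p = 0.0787, or adjusted p = 0.0151 with the replicate block). The scrambled call of Cdk1 was lost with no filter (adjusted p = 0.0641), with total-read scaling (adjusted p = 0.0878), with upper-quartile scaling (adjusted p = 0.071) and on leaving out any of 13 single libraries (adjusted p up to 0.325). Its log2 difference was 0.96, and lay between 0.67 and 1.22 in the fits that lost the call. Aurka, a spindle-pole kinase, had log2 differences of 1.31 (adjusted p = 0.0243) and 1.29 (adjusted p = 0.0386). Foxm1, an activator of mitotic genes, was not called and its libraries overlapped between days, at 15.04 and 24.8 RPM against 18.8 and 23.9 in scrambled cells (log2 difference 0.11, SE 0.42).

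Of 6 spindle checkpoint and anaphase genes, Mad2l1 was called in scrambled cells (1.82-fold, adjusted p = 0.0417) and 0 in knockdown cells (limma voom). The shares of all genes called higher were 11.2% and 6.74%. Medians of the 6 log2 differences were 1.26 and 1.25, and Mad2l1 in knockdown cells had 0.75 (adjusted p = 0.118, or adjusted p = 0.0222 with the replicate block). Bub1b, the checkpoint kinase-like BUBR1, was at 8.67 and 17.9 RPM, then 25.2 and 37.1, in scrambled cells (log2 difference 1.25, adjusted p = 0.109) and at 7.64 and 13.4, then 21.0 and 38.5, in knockdown cells (1.47, adjusted p = 0.0932). Both differences were called with the replicate block (adjusted p = 0.0164 and 0.0114). Cdc20, an activator of the anaphase-promoting complex, had log2 differences of 1.35 (adjusted p = 0.0531) and 1.23 (adjusted p = 0.118), and with the block adjusted p = 0.00791 and 0.0181. The day 2 libraries of both genes lay above those of day 0 in each arm.

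Top2a (ENSMUSG00000020914.10), the topoisomerase that untangles chromosomes before anaphase, had the largest rise of the 49 members. It was at 22.7 and 50.7 RPM at day 0 and 221 and 430 at day 2 in scrambled cells. In knockdown cells it was at 23.8 and 52.3, then 281 and 527. The rise was 8.81-fold (log2 difference 3.14, SE 0.60, adjusted p = 0.00245) in scrambled and 10.8-fold (3.44, SE 0.60, adjusted p = 0.002) in knockdown cells. Birc5, the survivin subunit of the chromosomal passenger complex, rose 2.87-fold in scrambled cells (adjusted p = 0.0267). Mki67, whose product Ki-67 coats mitotic chromosomes, was at 19.5 and 50.3 RPM, then 73.4 and 84.6, in scrambled cells (log2 difference 1.29, SE 0.66, adjusted p = 0.175). In knockdown cells it was at 11.1 and 35.9, then 55.3 and 78.4 (1.70, SE 0.68, adjusted p = 0.116). Its libraries did not overlap between days, and the replicate block called both differences (adjusted p = 0.0243 and 0.0144). Among spindle genes, Nusap1, a microtubule bundler, was called in scrambled cells (4.50-fold, adjusted p = 0.00688), and Tpx2 and Kif20a, a spindle assembly factor and a cytokinesis kinesin, had log2 differences of 1.03 and 1.21 in scrambled and 1.28 and 1.39 in knockdown cells, none of them called. Tpx2 (adjusted p = 0.0133 and 0.00686) and Kif20a (adjusted p = 0.0203 and 0.0173) were called in both arms with the replicate block.

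**Figure D2:**
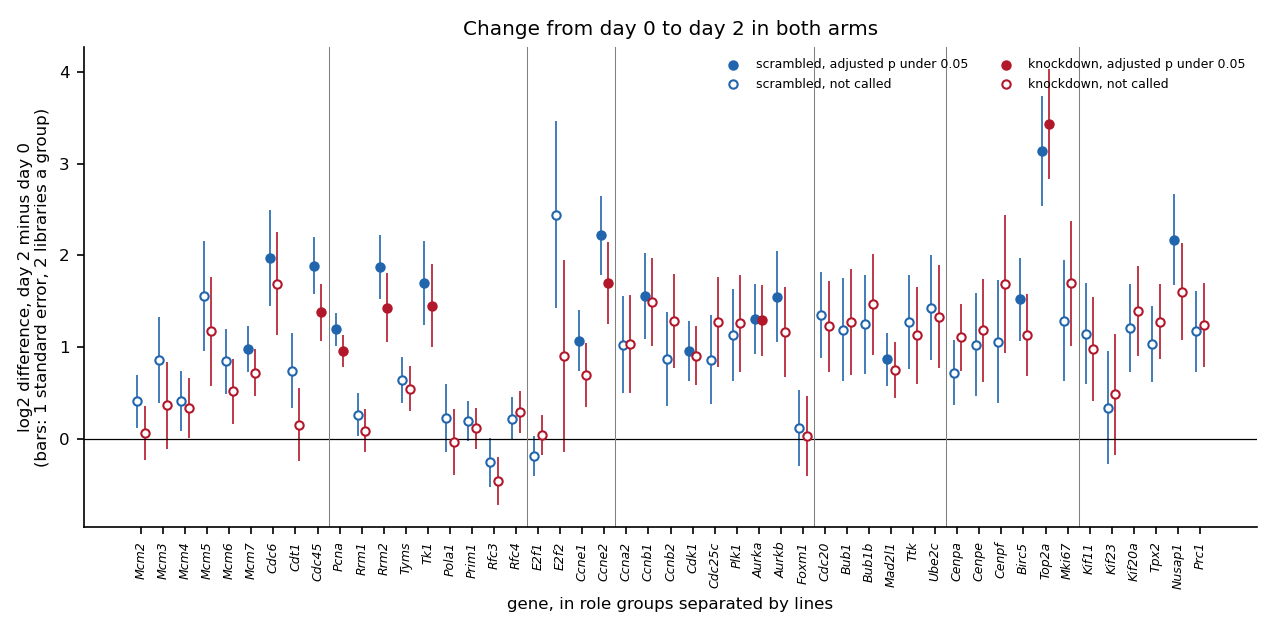
Log2 difference of day 2 minus day 0 (y axis) for each of the 49 genes (x axis, in role groups separated by lines) in scrambled (blue) and knockdown (red) cells, with bars of 1 standard error and filled points for adjusted p under 0.05. Top2a lies highest in both arms, at 3.14 and 3.44, and Rfc3 lies below 0 in both.

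The rise from day 0 to day 2 was not shown to differ between arms. In the test of the difference itself, 0 of 49 members were called (0% of all genes were), 0 had an unadjusted p under 0.05, where 2.34% of all genes did, and the count was 0 with the replicate block as well (limma voom). The median difference of the changes was -0.10, with 32 members negative.

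After day 2 most members were lower again, with few calls. From day 2 to day 4, 1 member was called lower in scrambled cells (Pcna, among 2.11% of all genes) and 1 in knockdown cells (Top2a, among 2.06%). Pcna went from 113 and 140 RPM to 81.3 and 71.6 in scrambled cells (log2 difference -0.72, SE 0.18, adjusted p = 0.0351) and from 107 and 127 to 79.8 and 82.4 in knockdown cells (-0.52, SE 0.18, adjusted p = 0.117, or adjusted p = 0.0282 with the replicate block). Top2a went from 221 and 430 RPM to 81.4 and 81.6 in scrambled cells (-1.91, SE 0.59, adjusted p = 0.0855, or adjusted p = 0.00417 with the replicate block) and from 281 and 527 to 60.1 and 101 in knockdown cells (-2.31, SE 0.60, adjusted p = 0.0413). In both genes and both arms, the day 4 libraries lay below both day 2 libraries. Members with both day 4 libraries below both of day 2 numbered 17 of 49 in scrambled cells (23.0% of all genes) and 14 of 49 in knockdown cells (28.0%), shares of 34.7% and 28.6%. The median differences were -0.33 and -0.41. With the replicate block 6 members were called in scrambled cells, all lower (Cdc6, Mcm7, Nusap1, Pcna, Rrm2 and Top2a), where 9.38% of all genes were, and 8 in knockdown cells, all lower (Ccne1, Ccne2, Cdc45, Cdc6, Mcm7, Pcna, Rrm2 and Top2a), where 8.03% were. The scrambled call was lost (0 members) without any 1 of the scrambled libraries of days 2 and 4 or the knockdown libraries of days 4, 6 and 8, and it was 2 members without either scrambled library of day 8. The knockdown call was lost (0) without any 1 of the 4 libraries of day 2 or the knockdown libraries of days 4, 6 and 8. The difference between arms was called for 0 of 49 members (0% of all genes), with 0 at an unadjusted p under 0.05 (1.12% of all genes, limma voom) and 0 with the replicate block (0.00606%).

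**Figure D3:**
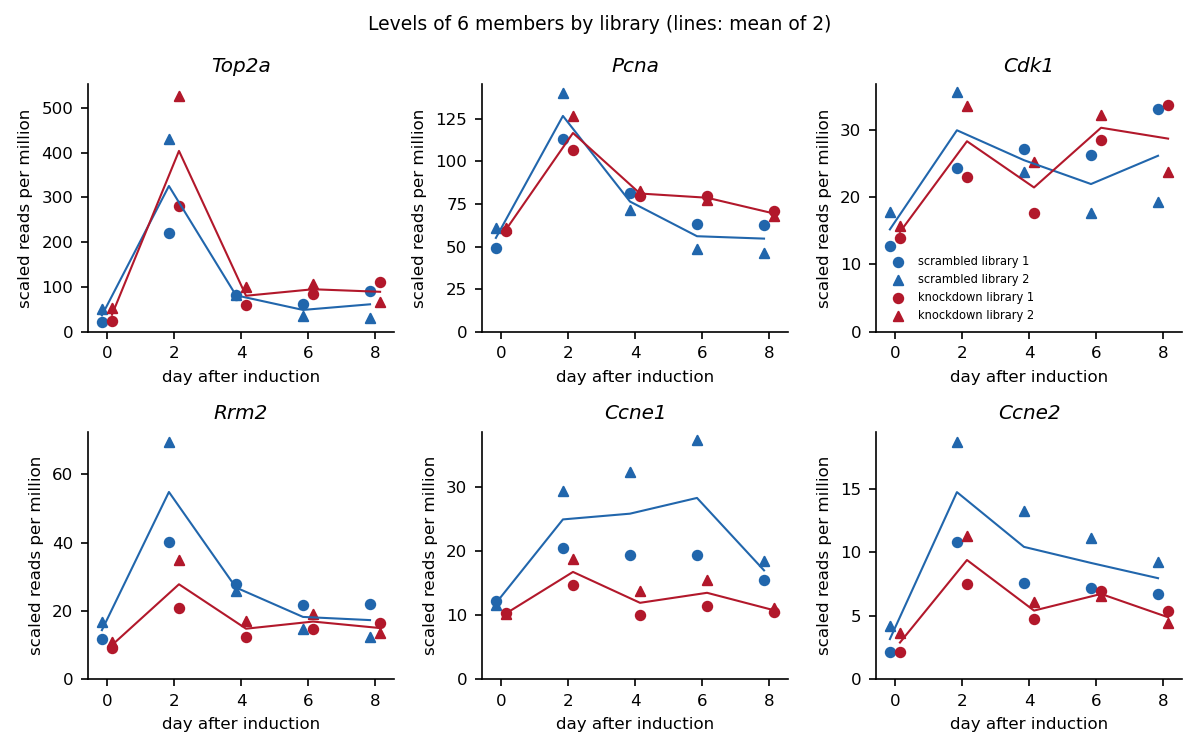
Scaled RPM (y axes, from 0) of Top2a, Pcna, Cdk1, Rrm2, Ccne1 and Ccne2 against day (x axes), with a point per library (circle library 1, triangle library 2) and lines through the means of 2. Top2a peaks at day 2 in both arms, at up to 527 RPM, and the 2 scrambled libraries of Ccne1 lie above the 2 knockdown libraries on every day.

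Late in differentiation no member was called in either arm, and no difference between arms was. The summed level of the 49 genes was highest at day 2 in both arms, at means of 1771 RPM in scrambled and 1586 in knockdown cells, against 894 and 1324 at day 6. Top2a alone gave 403.8 RPM of the knockdown mean at day 2 and 95.03 at day 6, so the day 2 peak of that sum rested on this gene. Ranked by means of 2 libraries, 42 of 49 members were highest at day 2 in scrambled cells, and in knockdown cells 15 were highest at day 2, 29 at day 6 and 5 at day 8. From day 4 to day 8 the median difference was -0.38 in scrambled and 0.27 in knockdown cells, and 0 members were called in either (2.42% and 0.824% of all genes were). At an unadjusted p under 0.05 there were 3 and 0 members (15.2% and 7.70% of all genes, limma voom), and with the replicate block 6 (Ccne1, Cdc45, Cdt1, Mcm7, Pcna and Tk1, all lower, as were 4.87% of all genes) and 0 (2.36%). For the difference between arms, all 49 members were positive with a median of 0.76, but 0 were called (0% of all genes) and 0 had an unadjusted p under 0.05 (2.26% of all genes did), with 0 also under the replicate block (0.00606%). The median was 0.11 without library 2 of scrambled day 8 and 1.29 without library 1, so its size moved with either of these 2 libraries. Leaving out library 2 of both arms on days 4, 6 and 8 (6 late libraries), the medians were 0.15 in scrambled and 0.93 in knockdown cells, so the direction in scrambled cells turned. The median difference between arms was 0.745 in that fit, near the 0.76 of all libraries.

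**Figure D4:**
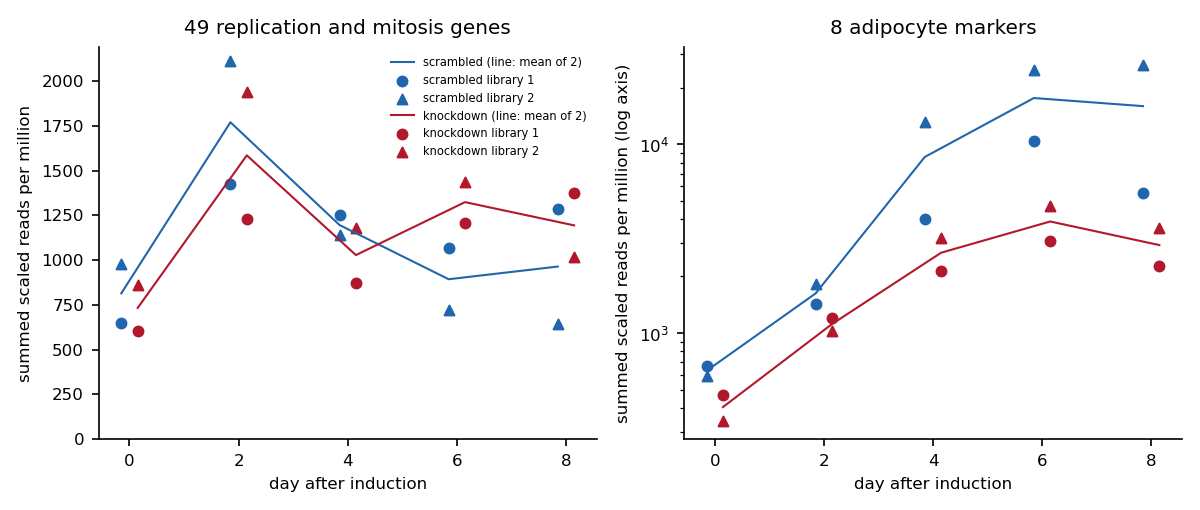
Summed scaled RPM of the 49 genes (left, axis from 0) and of the 8 adipocyte markers (right, log axis) against day, with a point per library and lines through the means of 2. At scrambled days 6 and 8 library 2 is the lower for the 49 genes (721 and 644 RPM) and the higher for adipocyte markers (24800 and 26380 RPM).

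The 2 scrambled libraries of late days stood apart from each other. At day 6 the 49 genes summed to 1066 RPM in library 1 and 721 in library 2, and at day 8 to 1285 and 644. Adipocyte markers summed to 10390 and 24800 RPM at day 6 and to 5493 and 26380 at day 8 in the same libraries. At day 8, 46 of 49 members were lower in scrambled library 2 than in library 1, with a median log2 ratio of -0.97. The exceptions were Cdc45, Ccne1 and Ccne2. In knockdown cells of day 8, 48 of 49 were lower in library 2, with a median of -0.54, where adipocyte markers summed to 2269 and 3583 RPM. At day 6, 44 of 49 members were lower in scrambled library 2, while 46 of 49 were higher in knockdown library 2. Mki67 was at 105 and 29.7 RPM in scrambled and 92.5 and 49.9 in knockdown cells of day 8, wider gaps than the medians of that day. The part of adipocyte content in these values was not tested.

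Knockdown against scrambled was tested within each day on the deposited log2 values, which compress low genes. No member was called at any of the 5 days: 0 of 49 on day 0 (0.224% of all genes), 0 on day 2 (0.267%), 0 on day 4 (1.61%), 0 on day 6 (4.12%), 0 on day 8 (5.75%) by limma. At an unadjusted p under 0.05 there were 0, 1, 5, 8 and 1 members, beside 6.41%, 5.02%, 10.2%, 24.0% and 23.4% of all genes, and limma voom on recovered reads called 0 at each day. With the replicate block the counts were 0, 0, 3, 8 and 2, beside 0.800%, 0.776%, 3.10%, 18.0% and 17.1% of all genes. On days 4 and 6 the members of both arms did not deviate alike by library number, the ground on which the block rests. The authors' deposited table called 1 member at day 2 (Rrm2, log2 fold change -0.75, adjusted p = 0.0104), 1 at day 6 (Ccnb2, 0.99, adjusted p = 0.0324) and 0 at days 0, 4 and 8. Median differences over the members were -0.10, -0.16, -0.25, 0.54 and 0.34 at days 0 to 8, beside 0.00, 0.00, -0.01, 0.00 and 0.00 over all genes. On recovered reads the members' medians were -0.19, -0.27, -0.31, 0.71 and 0.42. Most members were lower in knockdown cells up to day 4 and higher from day 6, and none of these differences was called.

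Up to day 4 the differences were small. At day 0, 36 of 49 were negative, and 5 (10.2%) had both knockdown libraries below both scrambled libraries, against 16.5% of all genes. At day 2, 42 of 49 were negative and 10 (20.4%) did not overlap in that direction, against 21.8%, and those included Rrm1, Rrm2, Mcm4, Mcm6 and Ccne1. At day 4, 44 of 49 were negative and 16 (32.7%) did not overlap, against 21.0%. Day 4 rested on library 1: there 48 of 49 members were lower in the knockdown library, with a summed ratio of 0.70, while in library 2 only 20 were lower and the ratio was 1.03. Adipocyte markers summed to 4041 and 13100 RPM in the scrambled and 2127 and 3205 in the knockdown libraries of that day. The medians of days 0 and 2 turned positive when 1 library was left out (0.12 without knockdown library 1 of day 0, 0.03 without scrambled library 2 of day 2), and that of day 4 was -0.01 without knockdown library 1. With the replicate block, Ccne1 (-0.91, adjusted p = 0.00832), E2f2 (-0.51, adjusted p = 0.0244) and Tk1 (-0.56, adjusted p = 0.04) were called lower at day 4. E2f2 was low and overlapped between arms, at 0.86 and 3.86 RPM in scrambled against 0.25 and 1.76 in knockdown cells.

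At day 6, 38 of 49 members (77.6%) had both knockdown libraries above both scrambled libraries, against 27.7% of all genes. Top2a was at 61.5 and 36.3 RPM in scrambled and 83.6 and 107 in knockdown cells (log2 difference 0.95, SE 0.55, adjusted p = 0.302). Kif23, a cytokinesis kinesin chosen for its largest difference after values were seen, was at 9.36 and 4.67 against 13.6 and 18.3 RPM (0.98). Pcna was at 63.3 and 48.8 against 79.9 and 77.5 RPM (0.48, SE 0.17, adjusted p = 0.119, or adjusted p = 0.0388 with the replicate block). All 9 G2/M genes, all 6 checkpoint genes, all 6 centromere genes and all 6 spindle genes were positive, with medians of 0.64, 0.50, 0.65 and 0.76. Of the 4 G1/S regulators, E2f1 alone was positive, and Ccne1 and Ccne2 had both knockdown libraries below both scrambled libraries. The replicate block called Aurkb, Ccnb2, Cdt1, Pcna, Pola1, Prim1 and Rfc3 higher and Ccne1 lower. The size differed by library number: the summed ratio of knockdown to scrambled was 1.13 in libraries 1 and 1.99 in libraries 2. Without the 6 late libraries numbered 2, the median was 0.13. It was 0.29 without scrambled library 2 of day 6. Adipocyte markers summed to 10390 and 24800 RPM in these scrambled libraries and to 3080 and 4724 in the knockdown libraries, and their part in the result was not tested.

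**Figure D5:**
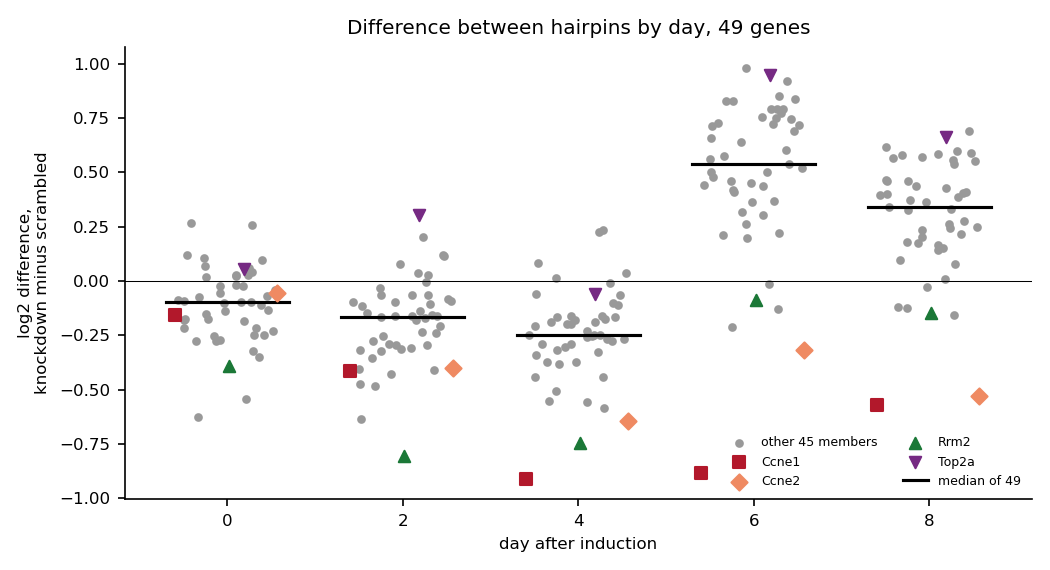
Log2 difference of knockdown minus scrambled in the deposited values (y axis) for the 49 genes at each day (x axis), with Ccne1, Ccne2, Rrm2 and Top2a marked and a bar at the median. The medians are -0.10, -0.16, -0.25, 0.54 and 0.34, while Ccne1 and Ccne2 stay below 0 at all 5 days. The compression of these values differs by day.

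At day 8, 7 of 49 members (14.3%) had both knockdown libraries above both scrambled libraries (Mcm2, Mcm7, Cdt1, Pcna, Pola1, Rfc3 and Ube2c), against 22.7% of all genes, and E2f2, Ccne1 and Ccne2 had both below. Mcm2 was at 54.0 and 30.6 RPM in scrambled and 64.2 and 63.6 in knockdown cells (log2 difference 0.62, SE 0.27, adjusted p = 0.193). Cdk1 overlapped between arms, at 33.1 and 19.2 against 33.6 and 23.7 RPM. The median of 0.34 rested on scrambled library 2: it was -0.15 without that library and 0.84 without library 1. The summed ratio was 1.07 in libraries 1 and 1.58 in libraries 2.

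Averaged over the 5 days (10 libraries per arm, day as a term), 3 members were called lower in knockdown cells, Ccne1, Ccne2 and Rrm2, or 6.12% of the 49 where 13.2% of all genes tested were called lower (limma). The members' share is below the background, and their median was 0.09. The 10 libraries of an arm enter as separate samples here, while all may descend from 1 puromycin-selected pool.

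Ccne1, whose product activates CDK2 for entry into S phase, was lower in both knockdown libraries at each of the 5 days. Beyond the day 0 and day 2 levels given above, scrambled cells had 19.4 and 32.2 RPM on day 4, 19.3 and 37.2 on day 6, then 15.4 and 18.5 on day 8. Knockdown cells had 9.999 and 13.8, 11.4 and 15.5, then 10.4 and 11.04 on those days. The averaged difference was -0.59 (SE 0.125, adjusted p = 0.00327). By day, in values compressed to different degrees, it was -0.15, -0.41, -0.91, -0.89 and -0.57. Of these the replicate block called days 4, 6 and 8 (adjusted p = 0.00832, 0.0072 and 0.0242). In scrambled cells Ccne1 was highest at day 6, where library 2, the library with more adipocyte marker RNA, was the higher. Without the 6 late libraries numbered 2, the averaged difference was -0.44.

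For Ccne2, levels in scrambled cells were 7.58 and 13.2 RPM at day 4, 7.18 and 11.1 at day 6, and 6.66 and 9.22 at day 8. In knockdown cells they were 4.71 and 6.08, 6.90 and 6.5, and 5.33 and 4.41. The groups did not overlap on these 3 days, and they overlapped at days 0 and 2. The averaged difference was -0.39 (SE 0.11, adjusted p = 0.0206). It was -0.35 (adjusted p = 0.086) without the 4 libraries of day 8 and -0.24 (adjusted p = 0.188) without the 6 late libraries numbered 2, and so was no longer called.

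In the limma fits Rrm2 was called lower in knockdown cells on average and on no single day, while the authors' own test called it lower at day 2. Its levels were 11.9 and 16.8 RPM against 9.14 and 10.8 at day 0, 40.2 and 69.4 against 20.7 and 34.8 at day 2, and 27.8 and 25.9 against 12.5 and 17.1 at day 4 (scrambled against knockdown). At days 6 and 8 the libraries overlapped, at 21.8 and 14.6 against 14.6 and 19.1, and at 22.1 and 12.4 against 16.4 and 13.5. The averaged difference was -0.43 (SE 0.14, adjusted p = 0.0287), and by day it was -0.39, -0.80, -0.74, -0.09 and -0.15, again in values compressed to different degrees. Whether it differed between days was tested only as differences between arms in the time steps, and none was called. Leaving out scrambled library 2 of day 2 or of day 4, or knockdown library 1 of day 2 or of day 4, ended the call (adjusted p = 0.0502, 0.0502, 0.0512 and 0.0577).

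With the replicate block the averaged fit called 7 members, where it called 35.9% of all genes: the 3 above, Cdc45 (-0.20, adjusted p = 0.0379) and E2f2 (-0.22, adjusted p = 0.0225) lower, and E2f1 (0.21, adjusted p = 0.0203) and Pola1 (0.38, adjusted p = 0.025) higher. E2f2 was at no more than 3.86 RPM in any library. E2f1 was higher in both knockdown libraries at days 2, 4 and 6, at 43.2 and 39.8 RPM against 37.7 and 32.5 at day 4. In the averaged fit without the block, leaving out scrambled library 1 of day 8 gave 5 called members. With all libraries that fit called 12.3% of all genes higher and 13.2% lower.

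Other genes of the same processes were taken from lists of names. In the counts that follow, genes that rose or fell are those called higher or lower. From day 0 to day 2, 11.2% of all genes rose and 13.4% fell in scrambled cells, and 6.74% rose and 8.60% fell in knockdown cells. Of 44 other replication genes, 10 rose and 1 fell in scrambled cells, and 3 rose and 1 fell in knockdown cells, the latter near the background. Of 58 other mitosis genes, 8 rose and 1 fell, and 6 rose and 1 fell, the 8 near the background. Among 20 checkpoint and recombination genes, 4 rose in scrambled and 0 in knockdown cells, and Topbp1, an activator of the kinase ATR, was at 39.7 and 50.5 RPM at day 0 and 59.1 and 75.4 at day 2 in scrambled cells (log2 difference 0.57, adjusted p = 0.0196). In knockdown cells Topbp1 was at 44.9 and 48.4, then 54.8 and 72.7 (0.44, adjusted p = 0.0814, or adjusted p = 0.0115 with the replicate block). Atr itself, and Zwint and Smc4 of the mitosis list (a kinetochore and a condensin subunit), were not called in any contrast. The replicate block called Smc4 higher at day 2 than day 0 in both arms (adjusted p = 0.0166 and 0.0202), Zwint lower in knockdown cells (adjusted p = 0.0365) and Atr higher in scrambled cells (adjusted p = 0.0228). Between hairpins, Rpa1, a single-strand DNA binding subunit, was higher in knockdown cells at day 6, at 78.7 and 79.6 against 60.1 and 47.6 RPM (0.54, SE 0.13, adjusted p = 0.0393). Rfc1, the large clamp-loader subunit, was lower on average (-0.30, SE 0.10, adjusted p = 0.0329). Averaged over days, 3 of the other replication genes were higher and 4 lower in knockdown cells, 2 mitosis genes were lower, and 4 checkpoint genes were lower, where 12.3% of all genes were higher and 13.2% lower.

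Of 22 G1 cyclins, CDKs, pocket proteins and E2Fs, 3 rose and 4 fell from day 0 to day 2 in scrambled cells, and 2 rose and 2 fell in knockdown cells, not far from the shares of all genes given above. Ccnd2, cyclin D2, fell from 645 and 630 RPM to 309 and 298 in scrambled cells (log2 difference -1.07, SE 0.21, adjusted p = 0.0028) and from 641 and 810 to 332 and 334 in knockdown cells (-1.11, SE 0.21, adjusted p = 0.00349). By day 4 it was back at 554 and 785 in scrambled and 583 and 667 in knockdown cells, a rise in both arms (adjusted p = 0.0106 and 0.0272). Cdk4, a kinase partner of D cyclins, fell from day 0 to day 2 by 0.60 in scrambled and 0.52 in knockdown cells on the log2 scale (adjusted p = 0.014 and 0.0401). In both genes the day 2 libraries were below the day 0 libraries, the reverse of most members.

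Of 8 CDK inhibitors, 7 passed the filter, and Cdkn1c did not, at no more than 0.352 RPM in any library. Cdkn2a fell from 272 and 242 RPM at day 0 to 161 and 164 at day 2 in scrambled cells (log2 difference -0.66, adjusted p = 0.00843) and from 277 and 265 to 190 and 168 in knockdown cells (-0.60, adjusted p = 0.0213). Cdkn1a, which encodes p21, fell from 398 and 323 to 198 and 185 RPM in knockdown cells (-0.91, adjusted p = 0.0198), and its difference in scrambled cells was -0.44 (adjusted p = 0.189, or adjusted p = 0.0345 with the replicate block). From day 4 to day 8 Cdkn1a fell in scrambled cells, from 192 and 296 to 107 and 133 RPM (fold 0.5, adjusted p = 0.0378). Between hairpins, Cdkn2b, which blocks CDK4 and CDK6, was higher in knockdown cells on average (0.53, SE 0.11, adjusted p = 0.00325), at 69.6 and 78.5 against 52.6 and 40.1 RPM at day 8, and Cdkn2a was too (0.21, SE 0.07, adjusted p = 0.0307). Cdkn2c, of the same family, was at 60.9 and 362 RPM in scrambled and 37.6 and 61.6 in knockdown cells of day 8 (-1.59, SE 0.75, adjusted p = 0.221, or adjusted p = 0.0313 with the replicate block), highest in the scrambled library with the most adipocyte marker RNA. Cdkn1b, Cdkn2d and Cdkn3 were called in none of the 5 days' knockdown contrasts, the average or the time steps.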

How the data were processed

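Expression was measured by RNA-seq in 20 libraries of 3T3-L1 cells. The submitters' processing notes name the build mm9, SAMtools, Bowtie2 2.2.3.0, TopHat2 2.0.13 and DESeq2 1.10.1. How reads were counted, and on which annotation, is not given in the sources used here. For each day the authors deposited 1 table, normalised on its own, with a log2 value per library after a variance-stabilising step. Each deposited table also has a mean signal per gene (mean normalised count), a log2 fold change, a test score, and raw and adjusted p-values. 0 library columns were left unused.

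Inverting that step gave whole reads (within 0.02) for 100% of values up to 100 normalised counts. Reads were scaled by median ratios over all 20 libraries (RPM). Knockdown contrasts used limma 3.58.1 (R 4.3.3, statmod 1.5.0, trend and robust) on the deposited log2 values, with 10 group means, and time steps used limma voom on recovered reads. P-values were adjusted (Benjamini-Hochberg) over 16497 genes and called at 0.05. The scripts were tested on simulated data.

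The members, lists and tests were chosen with earlier results of these data known. Genes named are the 2 highest by mean RPM in each role group and other list, called members of the knockdown contrasts and all CDK inhibitors. Names beyond these were chosen after values were seen. Library numbers are shared between hairpins. Same-numbered libraries of both arms deviated together (r across genes of 0.78, 0.70, 0.55, 0.54 and 0.47 for days 0, 2, 4, 6 and 8), and this, not the labels, is the ground for the replicate block. The 49 members did not deviate together on days 4 and 6. Their median log2 ratio of library 2 to library 1 was -0.093 in scrambled and 0.495 in knockdown cells at day 4, and -0.579 and 0.248 at day 6. Libraries of a group were not copies of each other (Spearman correlations of 0.963 to 0.993). Alternatives were other filters, scalings, normalisations and fits, the replicate block and leaving out each library. Fits without day 8, without the 6 libraries numbered 2 of days 4, 6 and 8, and of recovered reads with the block were added after the data were seen.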

Additional observations from a re-analysis of the deposited data

How the results depend on the processing

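No called value changed direction under any alternative run. The replicate block moved the members called from 16 to 35 (scrambled day 0 to day 2), 7 to 36 (knockdown), 1 to 6 and 1 to 8 (day 2 to day 4), 0 to 6 (scrambled day 4 to day 8), and in the knockdown contrasts from 0 to 3, 8 and 2 at days 4, 6 and 8 and from 3 to 7 on average. Recovered reads with the replicate block gave 1, 3, 9 and 2 at days 2 to 8 and 7 on average. It left 5 residual degrees of freedom and changed no other member count by over 1.5 times. Scaling by total reads gave 0 from day 2 to day 4 in both arms, and upper-quartile scaling gave 0 in knockdown cells. From day 0 to day 2 in knockdown cells, limma trend on log2 RPM gave 12, and fits without day 8 and without the 6 late libraries numbered 2 gave 16 and 15. Without those 6 libraries, 0 were called from day 2 to day 4 in either arm, and without day 8, 1 at knockdown day 6. A change of at least 1.5-fold left 1 on average. Leaving out each library gave 0 in every fit at days 0, 2 and 4, 0 to 4 at day 6, 0 to 9 at day 8, and 2 to 5 on average. It gave 5 to 21 and 2 to 16 from day 0 to day 2 (scrambled, knockdown), 0 to 2 and 0 to 1 from day 2 to day 4, and 0 from day 4 to day 8 and for every difference between arms. Shares of all genes in the fits that left out a library are not given, so those counts are not set against other genes. The cause of these shifts was not tested. With 2 libraries per group, differences under about the spread between libraries were not detectable.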
